A study of Homo sapiens with 16 samples.

Results

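The cyclin-dependent kinase (CDK) inhibitors of the INK4 and CIP/KIP families comprise 7 human genes, and all 7 were found by symbol among the 67938 gene identifiers of each count table. The CIP/KIP family has 3 members, CDKN1A (p21), CDKN1B (p27) and CDKN1C (p57), and the INK4 family has 4, CDKN2A (p16, and ARF from another reading frame), CDKN2B (p15), CDKN2C (p18) and CDKN2D (p19). In HepG2 6 of the 7 passed the filter on low counts (all but CDKN1C), and in SNU-449 5 of the 7 did (all but CDKN2A and CDKN2B). The members were taken by family name, with earlier results of these data already known.

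RNA was sequenced from cytoplasmic and nuclear extracts of 2 human liver cancer cell lines. HepG2 cells keep many features of hepatocytes, and SNU-449 cells come from a hepatocellular carcinoma. Each line had been given, 48 h earlier, either a control siRNA (NC) or siPANAD, in which siPANAD-1 and siPANAD-2 were mixed to target PANAD (C7orf25), so the effects of these 2 siRNAs cannot be told apart. Line, fraction and siRNA made 8 groups with 2 libraries each, 16 in all, which the design text calls biological duplicates. In its title the series names PANAD as a partner of NXF1, the receptor that carries mRNA out of the nucleus, and names CDK6 mRNA export and the passage from G1 to S phase. The comparisons here asked where the mRNAs of the inhibitors that hold CDK6 and its relatives in check were found, and how they differed with siPANAD.

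INK4 proteins bind CDK4 and CDK6 and keep D-type cyclins from activating them, so that the retinoblastoma protein stays unphosphorylated and E2F factors stay bound. CIP/KIP proteins bind complexes of cyclin and CDK more broadly and block cyclin E and cyclin A complexes of CDK2, although p21 and p27 also help cyclin D and CDK4 or CDK6 to assemble. Transcription of the p21 gene answers to stress signals, p27 is controlled largely by protein breakdown, and the CDKN2A and CDKN2B locus is often lost or silenced in tumours.

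The genes lie on 6 chromosomes (GRCh38). CDKN1A spans chromosome 6, 36676460 to 36687339 on the plus strand, CDKN1B chromosome 12, 12715058 to 12722371 on the plus strand, and CDKN1C chromosome 11, 2883213 to 2885773 on the minus strand. CDKN2A (chromosome 9, 21967753 to 21995301) and CDKN2B (chromosome 9, 22002903 to 22009363) are neighbours on the minus strand. CDKN2C spans chromosome 1, 50960745 to 50974633 on the plus strand, and CDKN2D chromosome 19, 10566462 to 10569059 on the minus strand. CDKN2A shares 7.88% of its exonic bases with the antisense gene CDKN2B-AS1, and CDKN1A 4.79% with the antisense gene DINOL. Whether strand was used in counting was not given in the sources used here, so reads of these overlaps may not have been told apart, and counts per gene do not separate the p16 and ARF transcripts of CDKN2A.

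RefSeq promoters (GRCh38.p14) were matched for 6 of the 7 members, with 9 entries of 250 bases before and 50 after a gene start. CDKN1C had no entry. The 250 bases before the start are shown for CDKN1A, the most abundant member, and for CDKN2A and CDKN2B, the neighbours that fell together in HepG2. They are written 5′ to 3′ on the gene's strand, and capitals mark GC boxes, the letters GGGCGG on either strand.
CDKN1A, chr6:36678464-36678713: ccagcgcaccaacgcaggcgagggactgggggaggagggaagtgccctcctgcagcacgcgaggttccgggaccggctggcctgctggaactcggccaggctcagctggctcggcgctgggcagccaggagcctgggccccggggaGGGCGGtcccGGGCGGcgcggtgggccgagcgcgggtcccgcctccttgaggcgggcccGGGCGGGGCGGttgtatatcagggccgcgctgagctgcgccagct
CDKN2B, chr9:22009306-22009555: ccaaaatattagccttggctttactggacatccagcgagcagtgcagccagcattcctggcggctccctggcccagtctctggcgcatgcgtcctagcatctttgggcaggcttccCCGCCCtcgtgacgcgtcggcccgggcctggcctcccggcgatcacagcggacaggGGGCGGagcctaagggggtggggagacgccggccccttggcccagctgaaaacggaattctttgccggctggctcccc
CDKN2A, p16 start, chr9:21974858-21975107: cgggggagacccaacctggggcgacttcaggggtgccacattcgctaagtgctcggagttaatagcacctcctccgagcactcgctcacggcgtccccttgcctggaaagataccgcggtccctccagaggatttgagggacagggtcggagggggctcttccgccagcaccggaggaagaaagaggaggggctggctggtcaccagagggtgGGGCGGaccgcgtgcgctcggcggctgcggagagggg
CDKN2A, ARF start, chr9:21995325-21995574: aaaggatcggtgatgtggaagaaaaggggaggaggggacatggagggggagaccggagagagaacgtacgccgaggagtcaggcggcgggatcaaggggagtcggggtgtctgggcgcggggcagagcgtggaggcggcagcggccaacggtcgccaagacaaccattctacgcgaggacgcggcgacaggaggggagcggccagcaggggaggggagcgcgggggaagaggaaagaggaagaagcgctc
In the 300 bases of each entry the GC box was found at 4 places for CDKN1A, of which the last overlaps the one before it, at 2 for CDKN2B, at 2 for the p16 start and at none for the ARF start. The second p16 match begins 14 bases after the start and lies outside the stretch shown. A GC box was found in 45% of the 35116 promoters of this length. No entry of a member held a TATA box (TATAAA, 11.5% of all promoters), an E2F site (TTTGGCGC or TTTCCCGC, 2.27%), an AP-1 site (TGACTCA, 4.95%) or a FOXO site (GTAAACA, 3.42%), on either strand. An E-box (CACGTG, 7.26%) was found at 2 of the 3 CDKN2C starts and at no other member. These matches describe letters in a window and not sites in use.

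Libraries held 16238235 to 30321908 counts, with HepG2 cytoplasm NC replicate 2 the deepest. A count of 0 in a library allows up to 3 counts, or 0.0989 to 0.185 CPM, the count per library total brought to a common size. These limits, like the count intervals below, cover counting error only. MALAT1, a nuclear RNA, separated the fractions, with at most 5.84 CPM in any cytoplasmic library and at least 370 in any nuclear one (no TMM scaling). Reads of C7orf25 itself were too few to show the knockdown: over both replicates it had 1 count in NC and 0 with siPANAD in the HepG2 cytoplasm, 2 and 5 in the HepG2 nucleus, 5 and 0 in the SNU-449 cytoplasm and 12 and 7 in the SNU-449 nucleus. C7orf25 also shares 61.1% of its exonic bases with AC010132.3 on the same strand, so even these counts are uncertain. All 10 hepatocyte markers reached 1 CPM in HepG2, where their summed level in the cytoplasm was 29000 to 42555 CPM. In SNU-449 that sum was 28.6 to 73.3 CPM in the cytoplasm and 66.7 to 211 in the nucleus, and ALB, APOA1, APOB, TTR, TF and HNF4A stayed under 1 CPM in both fractions. Most of it was FGB, a fibrinogen gene, with a mean of 61.6 CPM in the SNU-449 NC cytoplasm (HepG2 78.3) and 190 in the NC nucleus (HepG2 94.5). The summed level of the 6 mesenchymal markers overlapped between the lines in the cytoplasm, at 1800 to 2481 CPM in SNU-449 and 1661 to 3906 in HepG2, and was lower in SNU-449 in the nucleus, at 1227 to 1771 against 2736 to 6150. VIM, the vimentin gene, had a mean of 1547 CPM in the SNU-449 NC cytoplasm and 0.0362 in HepG2, while FN1, the fibronectin gene, had 11.1 and 3441. FGB, VIM and FN1 are named here after their values had been seen. In bulk RNA, fewer cells of a kind and less RNA per cell cannot be told apart. P-values rest on the spread between duplicates, estimated over all groups of a fit and moderated across genes. Each adjusted p below is from edgeR's quasi-likelihood test over all genes, except where DESeq2 is named.

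In HepG2 the family's mRNA was mostly CDKN1A, and in SNU-449 the INK4 genes CDKN2C and CDKN2D made up a large share. Levels of different genes were compared as TMM-normalised CPM per kilobase of exon. The exon length joined all annotated transcripts of a gene, from 1503 bases for CDKN2D to 4329 for CDKN2A, and can exceed that of the mRNA present. In the HepG2 cytoplasm with NC, CDKN1A was at 110 and 98.3 CPM per kb in the 2 replicates and CDKN1B at 42.1 and 44.8. CDKN2D followed at 8.23 and 8.66, CDKN2C at 3.64 and 3.82, CDKN2A at 2.37 and 1.81 and CDKN2B at 1.3 and 1.17 CPM per kb. No neighbours in that order overlapped between replicates, but the order also depends on the exon lengths used. Before scaling by length, CDKN2A had a mean of 9.05 CPM and CDKN2C 12.4. In the SNU-449 cytoplasm with NC the order was CDKN1A (65.4 and 69.7 CPM per kb), CDKN2D (34.4 and 40.6), CDKN2C (23.6 and 24.5), CDKN1B (16.8 and 16.3) and CDKN1C (1.66 and 1.37). There too, neighbours did not overlap at these lengths.

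The INK4 share of the family's summed length-scaled level was 6.38% to 9.86% over the 8 HepG2 libraries and 33.4% to 52.2% over the 8 SNU-449 libraries. CDKN1A alone held 62% to 79.3% in HepG2 and 30.1% to 49.2% in SNU-449. Shares within a library do not depend on its scaling factor, but they do depend on the exon lengths used. In the SNU-449 nucleus with NC the INK4 genes, at 52.2% and 51% of the sum, were level with the CIP/KIP genes.

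**Figure D1:**
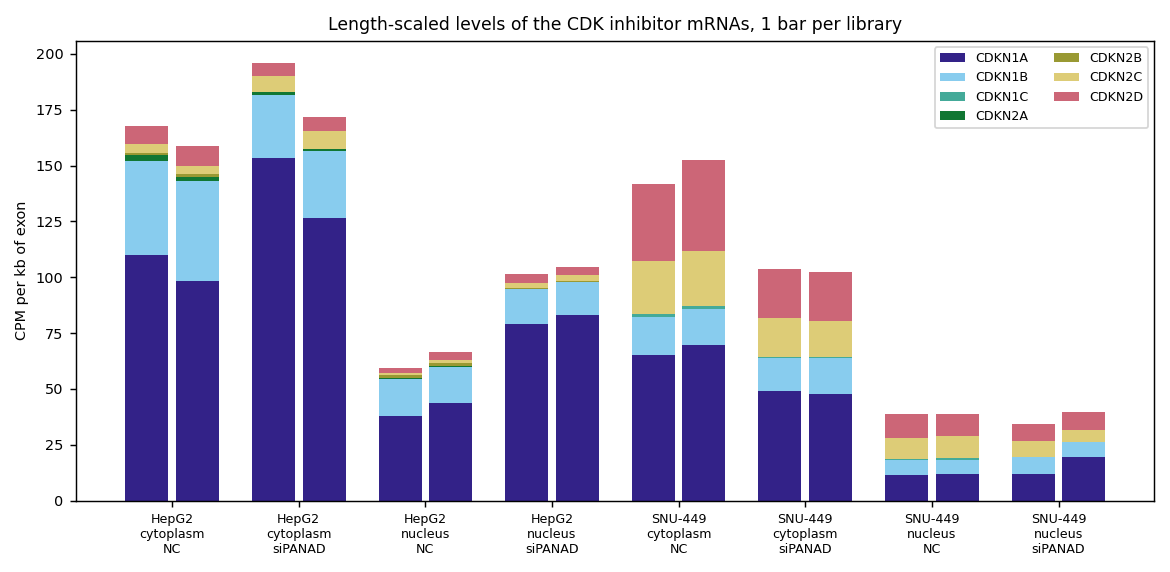
Stacked bars give the TMM-normalised CPM per kb of exon of the 7 CDK inhibitor mRNAs, 1 bar per library and 2 per group, with scaling within each line. CDKN1A holds 62% to 79.3% of each HepG2 bar and 30.1% to 49.2% of each SNU-449 bar, where CDKN2C and CDKN2D are wide bands.

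CDKN1A, which encodes p21, rose with siPANAD in HepG2 in both fractions. Its cytoplasmic level was 336 and 300 CPM with NC and 468 and 386 with siPANAD, and its nuclear level was 115 and 133 with NC and 241 and 253 with siPANAD. The groups did not overlap in either fraction. The log2 fold change was 0.43 (SE 0.13, adjusted p = 0.0109) in the cytoplasm and 0.99 (SE 0.14, adjusted p = 1.6e-06) in the nucleus, a 1.99-fold higher nuclear level. The cytoplasmic call rested on siPANAD replicate 1, without which the log2 fold change was 0.25 (adjusted p = 0.293).

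In SNU-449 CDKN1A had 199 and 212 CPM in the cytoplasm with NC and 149 and 145 with siPANAD. Its nuclear level was 35.5 and 35.9 CPM with NC and 36.4 and 59.4 with siPANAD, so that 1 siPANAD nuclear library stood well above the other. The cytoplasmic groups did not overlap, but the log2 fold change of -0.49 (SE 0.18) missed the threshold (adjusted p = 0.0599). The nuclear value of 0.43 (SE 0.19) missed it too (adjusted p = 0.101). In the cytoplasm the value of -0.49 was kept with adjusted p = 4.1e-05 when the 4 cytoplasmic libraries were fitted alone, adjusted p = 4.6e-05 without nuclear siPANAD replicate 2 and 5.4e-05 without replicate 1. The nuclear value was 0.02 without nuclear siPANAD replicate 2 and 0.73 (adjusted p = 6.3e-06) without replicate 1.

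CDKN1B, which encodes p27, fell in the HepG2 cytoplasm and did not pass the test in the other 3 knockdown comparisons. It was at 118 and 126 CPM with NC and 79.4 and 84 with siPANAD, 1.49-fold lower (log2 -0.58, SE 0.12, adjusted p = 2.7e-04). The HepG2 nucleus had 46.6 and 45.5 CPM with NC and 43.6 and 41.9 with siPANAD (log2 -0.11, 95% interval -0.36 to 0.15). The SNU-449 cytoplasm had 47.3 and 45.7 CPM with NC and 42.5 and 45.6 with siPANAD (log2 -0.08, 95% interval -0.30 to 0.15), and the nucleus 18.2 and 18.3 with NC and 21.1 and 18.7 with siPANAD (log2 0.12, 95% interval -0.11 to 0.36).

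CDKN1C, the imprinted gene of p57, was read in SNU-449 and was near 0 in HepG2. It fell with siPANAD in both SNU-449 fractions. The cytoplasm had 4.11 and 3.4 CPM with NC and 0.696 and 1.07 with siPANAD, 4.18-fold lower (log2 -2.07, SE 0.34, adjusted p = 6.2e-06), from 104 and 24 counts over the 2 libraries of each group. The nucleus had 0.861 and 1.62 CPM with NC and 0.47 and 0.594 with siPANAD, 2.32-fold lower (log2 -1.21, SE 0.38, adjusted p = 0.00809), from 58 and 25 counts. The nuclear call was lost with DESeq2 (adjusted p = 0.054) and without nuclear NC replicate 2, where the value was -0.70 (adjusted p = 0.248), or without nuclear siPANAD replicate 1, where it was -1.06. In HepG2 all 4 cytoplasmic libraries had 0 counts, and the nuclear ones 3 and 2 counts with NC and 2 and 2 with siPANAD.

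CDKN2B and CDKN2A, the neighbouring INK4 genes on chromosome 9, both fell with siPANAD in HepG2. CDKN2B, which encodes p15 and is known as a target of TGF-beta signalling, was at 5.28 and 4.77 CPM in the cytoplasm with NC and 0.88 and 0.47 with siPANAD. In the nucleus it was at 4.82 and 4.89 CPM with NC and 1.14 and 0.719 with siPANAD. The decreases were 7.35-fold in the cytoplasm (log2 -2.88, SE 0.33, adjusted p = 8.3e-08) and 5.16-fold in the nucleus (log2 -2.37, SE 0.27, adjusted p = 8.8e-08), the largest of the family in each fraction. They rest on 191 and 17 cytoplasmic and 202 and 44 nuclear counts over the 2 libraries of each group.

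CDKN2A had 10.3 and 7.84 CPM in the HepG2 cytoplasm with NC and 4.48 and 4.08 with siPANAD. The nucleus had 2.12 and 2.45 CPM with NC and 0.812 and 0.764 with siPANAD. It was 2.09-fold lower in the cytoplasm (log2 -1.06, SE 0.22, adjusted p = 2.1e-04) and 2.88-fold lower in the nucleus (log2 -1.53, SE 0.29, adjusted p = 1.3e-04). For both genes the NC and siPANAD libraries stood apart in each fraction, and both calls were kept in each fraction under every alternative run. In SNU-449, CDKN2A had at most 5 counts in any library and CDKN2B at most 1.

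CDKN2C, which encodes p18, moved in opposite directions in the 2 lines. In HepG2 it rose, from 12.1 and 12.7 CPM to 24.3 and 26.7 in the cytoplasm and from 4.33 and 4.7 to 8.12 and 8.67 in the nucleus. These were 2.06-fold (log2 1.04, SE 0.15, adjusted p = 2.9e-06) and 1.86-fold (log2 0.89, SE 0.17, adjusted p = 1.2e-04) higher levels. In SNU-449 it fell, from 78.2 and 81.2 CPM to 57.6 and 54.2 in the cytoplasm and from 32.2 and 32.4 to 23.3 and 17.9 in the nucleus. The log2 fold changes were -0.51 (SE 0.11, adjusted p = 2.1e-04) and -0.65 (SE 0.11, adjusted p = 1.4e-05).

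CDKN2D, which encodes p19, fell in the cytoplasm of both lines and in the SNU-449 nucleus. The HepG2 cytoplasm had 12.4 and 13 CPM with NC and 8.72 and 9.33 with siPANAD (log2 -0.49, SE 0.19, adjusted p = 0.0372). That call was lost with DESeq2 (adjusted p = 0.0913) and without cytoplasmic NC replicate 2, siPANAD replicate 1 or siPANAD replicate 2, with values of -0.45 to -0.58. In the HepG2 nucleus the NC libraries were at 3.05 and 5.03 CPM, and the siPANAD libraries, at 5.81 and 5.57, were above both. The nuclear log2 fold change of 0.49 (SE 0.21) missed the threshold (adjusted p = 0.057). It was 0.88 (adjusted p = 0.00589) without nuclear NC replicate 2, the higher library, 0.16 (adjusted p = 0.596) without replicate 1, and 0.53 (adjusted p = 0.024) with the 4 nuclear libraries fitted alone.

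In SNU-449 CDKN2D had 51.8 and 61.1 CPM in the cytoplasm with NC and 33.1 and 32.8 with siPANAD, 1.71-fold lower (log2 -0.78, SE 0.11, adjusted p = 7.8e-07). The SNU-449 nucleus had 15.7 and 14.9 CPM with NC and 11.5 and 11.7 with siPANAD (log2 -0.39, SE 0.13, adjusted p = 0.00962). The nuclear call was lost without nuclear NC replicate 1 (-0.37), siPANAD replicate 1 (-0.39) or siPANAD replicate 2 (-0.41).

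**Figure D2:**
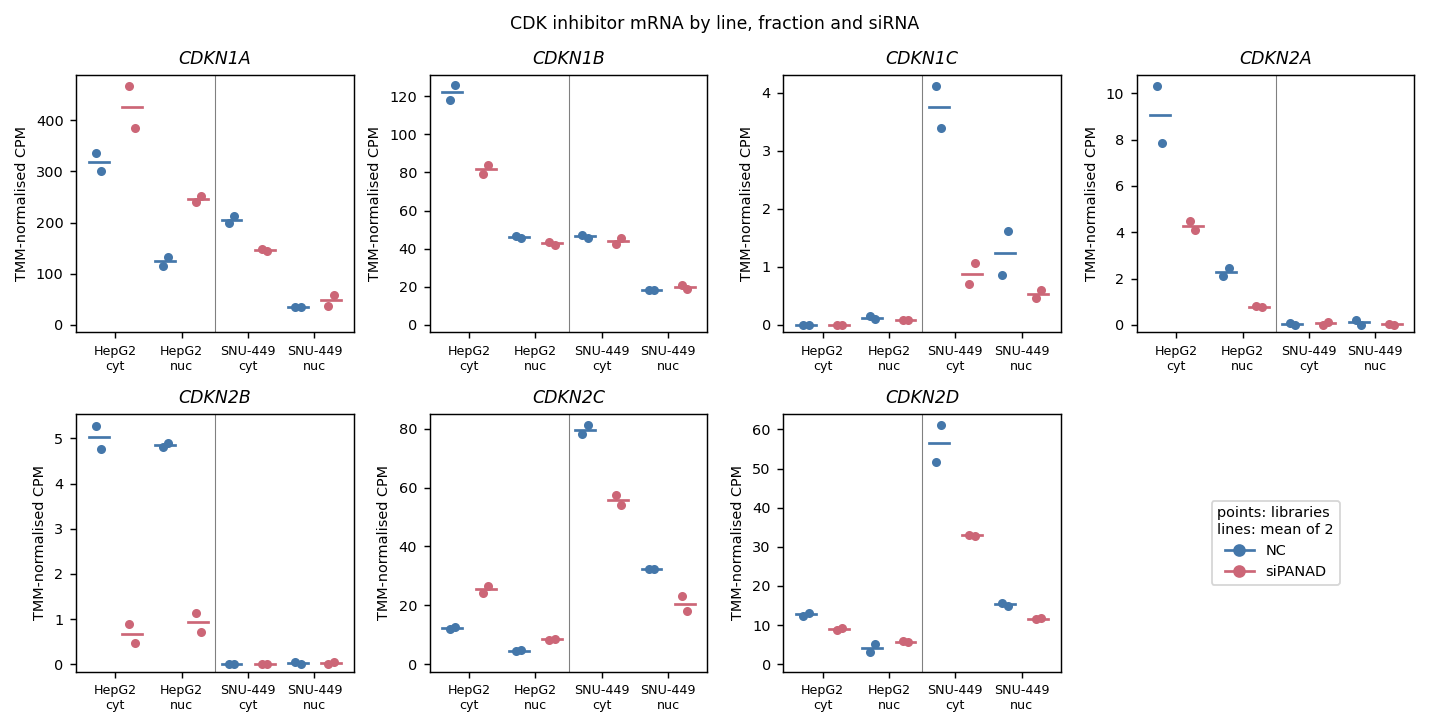
Each panel plots 1 CDK inhibitor gene, with TMM-normalised CPM on the y axis, the line and fraction on the x axis, points for libraries and bars for the mean of 2. CDKN1A is higher with siPANAD in both HepG2 fractions, CDKN2B falls from near 5 to under 1.2 CPM there, and CDKN2C moves up in HepG2 and down in SNU-449.

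Counted over the members tested, all 6 passed the test in the HepG2 cytoplasm, 2 higher and 4 lower. There 47.9% of 17499 genes passed, 23.7% higher and 24.2% lower. In the HepG2 nucleus 4 of 6 passed, 2 higher and 2 lower, against 45.6% of all genes, 22.0% higher and 23.6% lower. SNU-449 had 3 of 5 members in the cytoplasm, all lower, where 39.7% of 17895 genes passed and 20.1% were lower. In its nucleus the same number of members passed, all lower, where 46.0% of genes passed and 23.9% were lower. The members' median log2 fold change was -0.54 and 0.19 in the HepG2 cytoplasm and nucleus and -0.51 and -0.39 in SNU-449, beside medians over all genes between -0.03 and 0.04. Since 39.7% to 47.9% of all genes passed, these counts say little of the family as a whole. Within HepG2 the log2 fold changes ran from -2.88 (CDKN2B) to 1.04 (CDKN2C).

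**Figure D3:**
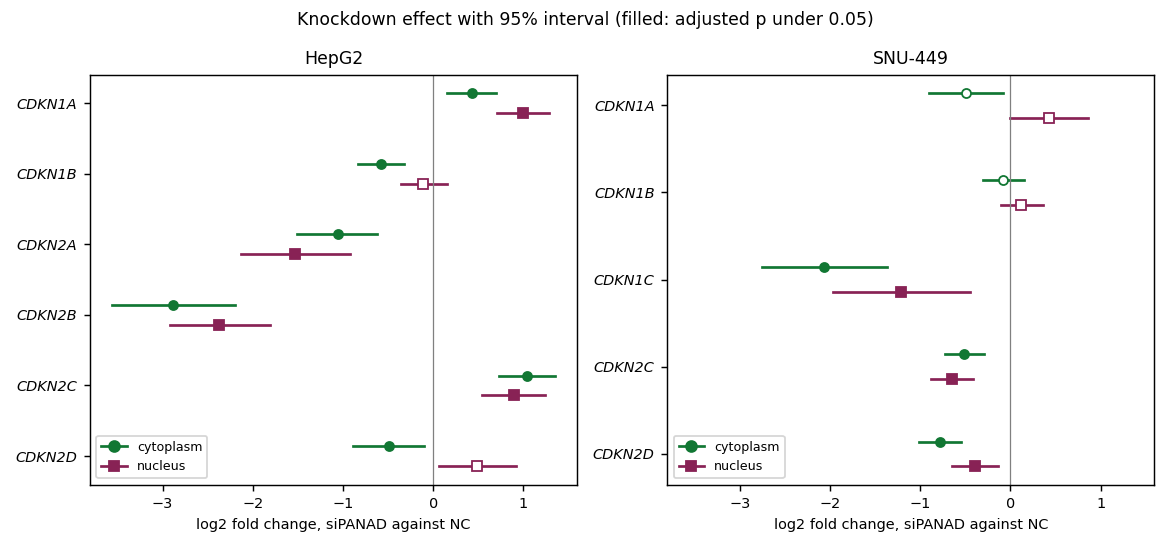
Points give the log2 fold change of siPANAD against NC for each member tested, with 95% intervals, by line and fraction; filled points have an adjusted p under 0.05. In HepG2 CDKN1A and CDKN2C lie to the right in both fractions and CDKN2A and CDKN2B to the left, while all filled points of SNU-449 lie to the left.

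Under NC the inhibitor mRNAs were lower in the nucleus than in the cytoplasm, with CDKN2B in HepG2 as the exception. TMM scaling centres each library on its typical gene, so these ratios are relative to that gene and not amounts per cell. In HepG2 5 of 6 members passed the test, all lower in the nucleus, where 77.1% of all genes passed and 37.7% were lower. In SNU-449 it was 5 of 5, where 79.8% passed and 36.2% were lower. The log2 ratio of nucleus to cytoplasm in HepG2 was -1.36 for CDKN1A, -1.41 for CDKN1B, -1.97 for CDKN2A, -1.46 for CDKN2C and -1.65 for CDKN2D, with SEs of 0.12 to 0.22. In SNU-449 it was -2.53 (SE 0.19) for CDKN1A, -1.35 (SE 0.11) for CDKN1B, -1.59 (SE 0.28) for CDKN1C, -1.30 (SE 0.11) for CDKN2C and -1.88 (SE 0.12) for CDKN2D. With no scaling factors these ratios were nearer 0, from -0.73 to -1.35 in HepG2 and from -0.45 to -1.68 in SNU-449, and all were still called lower.

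CDKN2B in HepG2 was at like levels in both fractions, with a log2 ratio of -0.04 (SE 0.22, 95% interval -0.49 to 0.41). Its sign depended on the scaling: it was 0.05 with RLE scaling or DESeq2 and 0.58 (adjusted p = 0.0216) with no scaling factors. CDK6, the kinase in the series title, had a ratio of -0.71 (SE 0.12) in HepG2 and -0.86 (SE 0.09) in SNU-449, and CDK4 one of -3.05 (SE 0.14) and -3.62 (SE 0.10). The ratios of the inhibitors other than CDKN2B lay between those of the 2 kinases.

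The ratio shift, that is the nuclear minus the cytoplasmic log2 fold change with siPANAD, passed the test for 1 member in each line. In HepG2 it was CDKN2D, 1 of 6 members against 9.89% of all genes, with a shift of 0.98 (SE 0.28, adjusted p = 0.0274): its nucleus to cytoplasm ratio was 0.319 with NC and 0.63 with siPANAD. In SNU-449 it was CDKN1A, 1 of 5 against 20.2%, with a shift of 0.91 (SE 0.26, adjusted p = 0.0394), from a ratio of 0.173 to 0.326. Each call depended on single libraries. The CDKN2D shift lost its call without nuclear NC replicate 1 (0.66) and without nuclear siPANAD replicate 1 or 2 or cytoplasmic siPANAD replicate 1 (0.95 to 1.01). The CDKN1A shift lost its call without any 1 of 6 SNU-449 libraries, the 2 cytoplasmic NC, the 2 cytoplasmic siPANAD and the 2 nuclear NC, with values of 0.85 to 0.97, and was 0.52 without nuclear siPANAD replicate 2.

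In HepG2 the shifts of CDKN1A, 0.57 (SE 0.19, adjusted p = 0.0575), and CDKN1B, 0.47 (SE 0.17, adjusted p = 0.0796), were above 0 and missed the threshold. CDKN1A passed it with DESeq2 (0.57, adjusted p = 0.0273), with no filter on low counts (0.68) and with no scaling factors (0.84), CDKN1B in the last 2 (0.58 and 0.75). The shifts of CDKN2A (-0.46, SE 0.37), CDKN2B (0.51, SE 0.47) and CDKN2C (-0.15, SE 0.23) had intervals on both sides of 0. In SNU-449 the same held for CDKN1B (0.20, SE 0.16), CDKN1C (0.85, SE 0.54) and CDKN2C (-0.14, SE 0.16). CDKN2D there had 0.38 (SE 0.17, adjusted p = 0.111), and 0.51, past the threshold, without cytoplasmic NC replicate 1. For comparison the CDK6 shift was 1.15 (SE 0.17, adjusted p = 1.3e-04) in HepG2 and 1.63 (SE 0.14, adjusted p = 1.5e-10) in SNU-449, the target named by the series title.

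**Figure D4:**
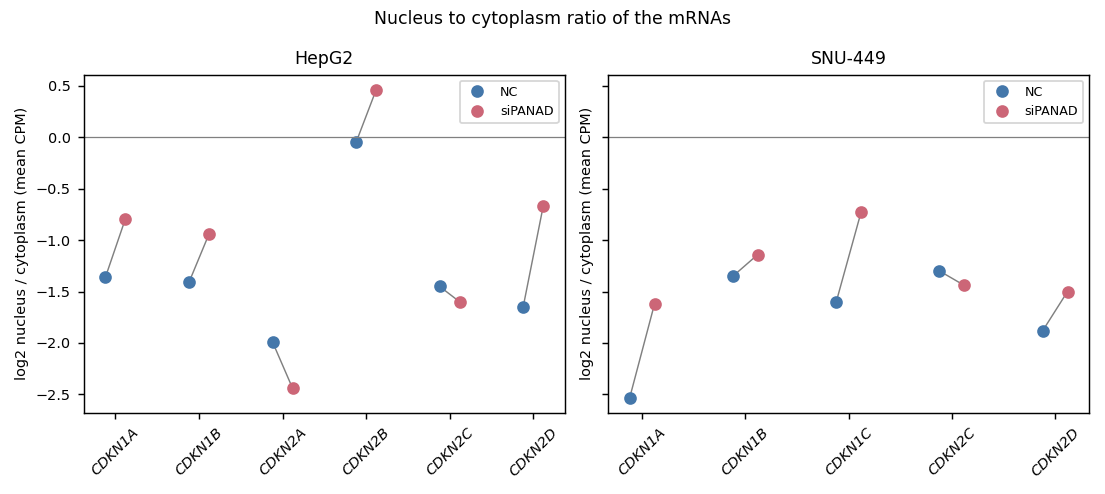
Points give the log2 ratio of mean nuclear to mean cytoplasmic TMM-normalised CPM of each member tested, with NC and siPANAD joined by a line, in HepG2 (left) and SNU-449 (right). CDKN2D in HepG2 moves from -1.65 to -0.67 and CDKN1A in SNU-449 from -2.53 to -1.62, and CDKN2C moves little in either line.

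The lines differed before any knockdown, and this was tested in a fit of all 16 libraries for the 4 members read well in both. In the NC cytoplasm all 4 differed, where 71.2% of 20459 genes did: CDKN2C was 6.33-fold higher in SNU-449 (log2 2.66, SE 0.13) and CDKN2D 4.38-fold higher (log2 2.13, SE 0.15), while CDKN1A was 1.56-fold lower (log2 -0.65, SE 0.15) and CDKN1B 2.66-fold lower (log2 -1.41, SE 0.11). In the NC nucleus all 4 differed again, against 75.5% of genes, in the same directions: 7.18-fold higher for CDKN2C, 3.78-fold higher for CDKN2D, 3.46-fold lower for CDKN1A and 2.5-fold lower for CDKN1B. The line is confounded with culture medium, DMEM for HepG2 and RPMI for SNU-449, and their parts cannot be told apart.

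For the 3 members near 0 in 1 line, pooled NC counts per library total were compared. The fit of all 16 libraries held these too, and all 7 members passed the test in each NC fraction. There 71.2% of all genes passed in the cytoplasm and 75.5% in the nucleus. CDKN1C had 104 counts in the SNU-449 cytoplasm and 0 in HepG2, at least 35.2-fold higher by the exact 95% lower limit (44-fold against 3 counts over the group), and 58 against 5 in the nucleus, a ratio of 11.1 (exact 95% interval 4.49 to 35.5). CDKN2B had 191 counts in the HepG2 cytoplasm and 0 in SNU-449, at least 40.4-fold higher by the same limit (50.2-fold against 3 counts over the group), and 202 against 1 in the nucleus, a ratio of 211 (37.5 to 8378). CDKN2A had 336 counts against 1 in the cytoplasm, a ratio of 265 (47.2 to 10485), and 95 against 5 in the nucleus, a ratio of 19.9 (8.22 to 62.5).

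The loss of reads from CDKN2A and CDKN2B in SNU-449 extended to their neighbours. Genes within 6 Mb of the CDKN2A start with at least 80 counts in a line were listed, 22 in all; this list was made after the values of the 2 genes had been seen. MLLT3, FOCAD, KLHL9, MTAP and CDKN2B-AS1 had 0 counts over the 8 SNU-449 libraries, where HepG2 had 1117, 2094, 2075, 2282 and 160. CDKN2A had 9 counts in SNU-449 and 576 in HepG2, and CDKN2B 2 and 454. These 7 genes lie next to each other in the list, from 1.37 Mb to the left of the CDKN2A start to CDKN2B. Reads resumed on the left at AL158206.1 (2.54 Mb away, 452 counts in SNU-449) and on the right at CAAP1 (4.90 Mb away, 3317 counts). MTAP encodes an enzyme of methionine salvage. RNA counts alone do not show whether the DNA is present.

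**Figure D5:**
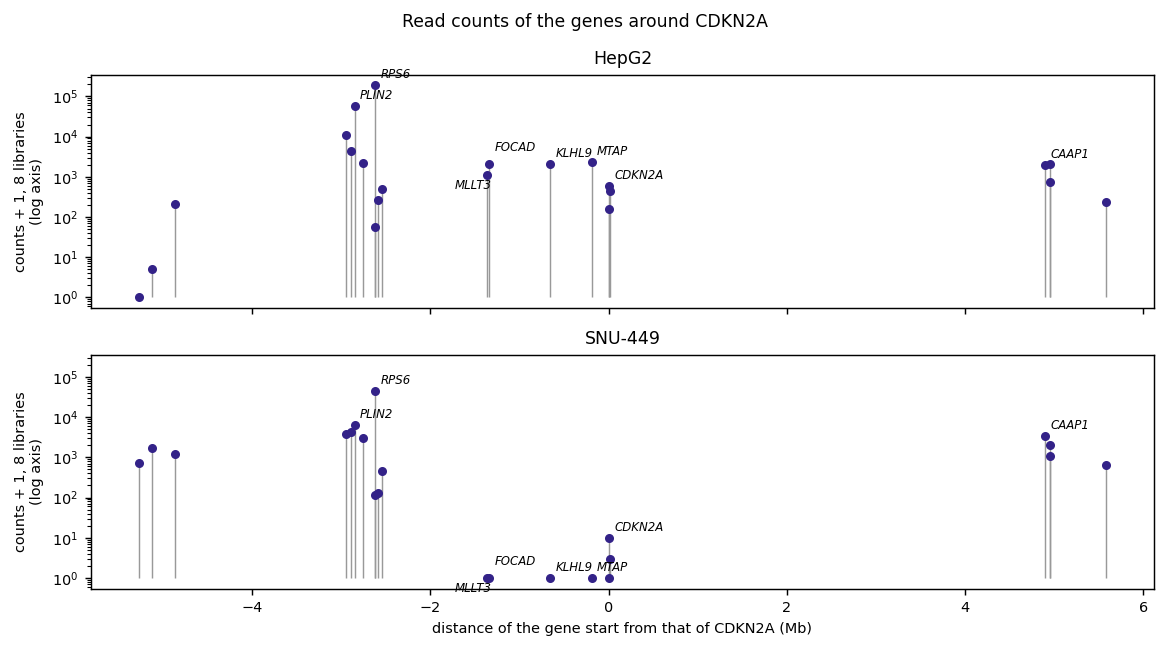
Stems give counts plus 1 over the 8 libraries of each line (log axis) for the 22 genes around CDKN2A, by the distance of the gene start from that of CDKN2A in Mb. In SNU-449 the genes from MLLT3 to CDKN2B lie at 9 counts or fewer, and the genes on either side of them, such as AL158206.1 (452) and CAAP1 (3317), have counts.

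CDK6 mRNA, which encodes a kinase bound by the INK4 proteins, fell in both fractions of both lines. It had 113 and 119 CPM in the HepG2 cytoplasm with NC and 36.1 and 35.1 with siPANAD (log2 -1.71, SE 0.13, adjusted p = 3.8e-11), and 201 and 198 against 38.8 and 35.1 in the SNU-449 cytoplasm (log2 -2.43, SE 0.10, adjusted p = 2.4e-20). The summed INK4 level in the HepG2 cytoplasm was 15.5 and 15.5 CPM per kb with NC and 14.4 and 15.3 with siPANAD, since CDKN2C rose while the other 3 fell. In the SNU-449 cytoplasm it was 58 and 65.1 with NC and 39.4 and 38.2 with siPANAD. The ratio of INK4 to CDK6 mRNA, both per kb, was 1.68 and 1.59 with NC and 4.88 and 5.35 with siPANAD in the HepG2 cytoplasm, and 3.53 and 4.04 against 12.5 and 13.3 in the SNU-449 cytoplasm. In the nucleus it was 0.84 and 1.17 against 1.68 and 1.74 in HepG2 and 2.27 and 2.19 against 2.7 and 2.75 in SNU-449. In all 4 the siPANAD libraries lay above the NC libraries.

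Per kb of exon, CDK6 was a small part of the kinase mRNA in the cytoplasm and a larger one in the nucleus. Such shares, and the INK4 ratios to the kinases, depend on the exon lengths used, 12260 bases for CDK6 and 3168 for CDK4. Before scaling by length, the HepG2 NC cytoplasm had means of 116 CPM for CDK6 and 471 for CDK4, and SNU-449 had 200 and 679. In the NC nucleus unscaled CDK6 was above CDK4, at 70.9 and 56.9 CPM in HepG2 and 110 and 55.2 in SNU-449. Per kb it made up 6.07% and 5.94% of CDK4 plus CDK6 in the HepG2 cytoplasm with NC and 7.43% and 6.72% in SNU-449, falling to 2.12% and 2.17% and to 1.55% and 1.44% with siPANAD. In the nucleus it made up 26.9% and 22.1% in HepG2 and 35% and 32.9% in SNU-449 with NC, and 17.8% and 17.4% and 21.6% and 21.7% with siPANAD. Against CDK4 plus CDK6 the INK4 sum was at a ratio of 0.102 and 0.0944 with NC and 0.104 and 0.116 with siPANAD in the HepG2 cytoplasm, and 0.262 and 0.271 against 0.194 and 0.193 in SNU-449. In the nucleus the same ratio was 0.226 and 0.258 with NC and 0.299 and 0.303 with siPANAD in HepG2, and 0.795 and 0.721 against 0.582 and 0.597 in SNU-449. CDK4 did not pass the test in any of the 4 knockdown comparisons, with log2 fold changes of -0.16 to 0.09, nor did CCND1, the cyclin D1 gene, with -0.08 to 0.23. CDK4 shares 43.2% of its exonic bases with TSPAN31 on the other strand, so its counts are uncertain.

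The effect of siPANAD was then compared between lines for the 4 members tested in the fit of each line. Reads of C7orf25 were too few to show the knockdown in either line, and line and culture medium are confounded here too. In the cytoplasm 3 of 4 differed, or 3 of all 7 members held in the fit of 16 libraries, against 18.2% of all genes. The SNU-449 minus the HepG2 effect was -1.59 (SE 0.18, adjusted p = 5.7e-09) for CDKN2C, -0.96 (SE 0.21, adjusted p = 0.00109) for CDKN1A and 0.46 (SE 0.16, adjusted p = 0.0362) for CDKN1B, while CDKN2D had -0.32 (95% interval -0.76 to 0.11). In the nucleus 3 of 4 differed, or 3 of all 7, against 20.9% of all genes. They were CDKN2C by -1.56 (SE 0.20, adjusted p = 7.2e-08), CDKN2D by -0.90 (SE 0.24, adjusted p = 0.00394) and CDKN1A by -0.58 (SE 0.21, adjusted p = 0.0479). CDKN1B had 0.21 there (95% interval -0.12 to 0.54).

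The CDKN2C difference and the cytoplasmic CDKN1A difference were called under every alternative run. The nuclear CDKN1A difference was lost in 12 of 16 fits that each left out 1 library; it was -0.27 without SNU-449 nuclear siPANAD replicate 1 and -0.99 (adjusted p = 2.3e-04) without replicate 2. The nuclear CDKN2D difference was -0.58 (adjusted p = 0.099) without HepG2 nuclear NC replicate 1, and the cytoplasmic CDKN1B difference missed the threshold with RLE scaling (0.43, adjusted p = 0.0568) and in 6 of 16 such fits.

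Genes that act with the inhibitors were read from lists chosen by function. Single genes are named by the size of their change in a comparison, so they may have changed in other comparisons too. Of the transcriptional regulators of the inhibitor genes, 5 rose and 11 fell among 30 tested in the HepG2 cytoplasm, and 4 rose and 11 fell in the nucleus. In SNU-449 5 of 31 rose and 8 fell in the cytoplasm, and 5 rose and 12 fell in the nucleus. Of all genes 47.9% and 45.6% passed the test in the HepG2 cytoplasm and nucleus and 39.7% and 46.0% in SNU-449. With 14 and 15 of 30 and 18 and 14 of 31 not passing, the totals of the list are near these shares. The falls alone were above the share of all genes that were lower. That share was 24.2% and 23.6% in the HepG2 cytoplasm and nucleus and 20.1% and 23.9% in SNU-449. No test of this list was made. MYC, which encodes a known repressor of CDKN1A and CDKN2B, fell in the HepG2 cytoplasm (log2 -1.53, SE 0.15, adjusted p = 4.9e-09). In the HepG2 nucleus MYC went from 236 and 200 CPM with NC to 72.8 and 91.3 with siPANAD. ETS2, an ETS factor gene, fell in the HepG2 nucleus (log2 -1.67, SE 0.13, adjusted p = 7.2e-11). In the HepG2 cytoplasm ETS2 went from 118 and 116 CPM with NC to 39.3 and 45.1 with siPANAD. TGFBR1, a TGF-beta receptor gene, fell in SNU-449 in the cytoplasm (log2 -1.29, SE 0.14) and nucleus (log2 -1.35, SE 0.13). In the HepG2 cytoplasm TGFBR1 went from 14.8 and 19.8 CPM with NC to 8.56 and 8.86 with siPANAD. KDM6B, a histone demethylase gene, rose in the SNU-449 nucleus (log2 1.25, SE 0.12).

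Among the genes whose products break down p21 and p27, 6 of 12 rose and 2 fell in the HepG2 cytoplasm, 5 rose and 1 fell in the HepG2 nucleus, 3 rose and none fell in the SNU-449 cytoplasm, and 2 rose and 4 fell in the SNU-449 nucleus. With 39.7% to 47.9% of all genes passing, the count was above that share in the HepG2 cytoplasm, below it in the SNU-449 cytoplasm and near it in both nuclei, and no test of the list was made. CUL4B, a cullin scaffold gene, rose by log2 1.02 (SE 0.14) in the HepG2 cytoplasm, 0.64 (SE 0.14) in the HepG2 nucleus and 1.10 (SE 0.16) in the SNU-449 cytoplasm. DTL, the substrate receptor that brings p21 to that ligase, fell in the SNU-449 nucleus (log2 -0.52, SE 0.11). RNF123 had the largest change of the list there and rose (log2 0.89, SE 0.12).

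Downstream, among the pocket protein and E2F genes 6 of 13 fell and none rose in the HepG2 cytoplasm, 5 fell and none rose in its nucleus, 6 fell and 1 rose in the SNU-449 cytoplasm, and 7 fell and 2 rose in its nucleus. E2F3 fell in HepG2 (log2 -1.15, SE 0.15 in the cytoplasm, and -0.58, SE 0.13 in the nucleus). E2F5 rose in the SNU-449 cytoplasm (log2 1.23, SE 0.13). The targets of CIP/KIP proteins, cyclin E, A and B genes with CDK1 and CDK2, had 1 lower in the HepG2 cytoplasm, 1 higher and 2 lower in its nucleus, and 3 and 4 of 6 lower in the SNU-449 cytoplasm and nucleus. Of all genes, 39.7% to 47.9% passed. The counts passing in both lists were near or below that share in HepG2 and above it in SNU-449. The share of all genes that were lower was 24.2% and 23.6% in the HepG2 cytoplasm and nucleus and 20.1% and 23.9% in SNU-449. The falls in both lists were above these shares, except for the CIP/KIP targets in the HepG2 cytoplasm. The lists are short, and none was tested as a list. CCNE1, the cyclin E1 gene, fell in both SNU-449 fractions (log2 -0.85 and -0.95, SE 0.10 in each).

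Proliferation markers were read beside these lists. In HepG2 5 of 15 fell and 1 rose in the cytoplasm and 9 fell and 1 rose in the nucleus, and in SNU-449 7 fell and 1 rose, and 10 fell and 1 rose. In the HepG2 cytoplasm 9 of 15 did not pass, where 47.9% of all genes passed; in the other 3 comparisons 4 to 7 of 15 did not, where 39.7% to 46.0% of all genes passed. MKI67 fell in the HepG2 nucleus (log2 -0.88, SE 0.14) and the SNU-449 cytoplasm (log2 -0.71, SE 0.11). The part of cell cycle position in the values of the inhibitor mRNAs was not tested.

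The genes most like each member over the 16 libraries were found by Pearson correlation of log2 CPM after the mean of each line had been taken off. They were TARBP2, EOLA1 and DNAJB2 for CDKN1A (0.98 each), PRPF19, CSNK1A1 and MAP2K3 for CDKN1B (0.99 each), C1orf115, IDH2 and BIK for CDKN2C (0.99 each) and MBD3, TSPAN17 and TSSC4 for CDKN2D (0.98 each). These correlations are a description: the libraries share the nuclear and cytoplasmic split, which most genes follow.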

How the data were processed

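Cytoplasmic and nuclear RNA of HepG2 and SNU-449 cells was sequenced 48 h after transfection, from directional libraries per the labels' protocols. The authors deposited unnormalised gene counts, as whole numbers, with a table for each line. Trim Galore 0.6.4, HISAT2 2.2.1 and hg38 are listed in the submitters' processing notes; how reads were counted, on which annotation release and with what strand setting is not given in the sources used here. A symbol was found for 61444 of 67938 identifiers; the others held 0.0306% (HepG2) and 0.0414% (SNU-449) of counts, and 1 entry broken over lines was left out of each table. Gene positions and exonic lengths came from GENCODE 29 on GRCh38 and promoters from RefSeq.

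Counts were tested in R 4.3.3 with edgeR 4.0.16: filterByExpr (minimum count 10), TMM scaling, glmQLFit (robust) and glmQLFTest, two-sided, with Benjamini-Hochberg adjustment over all genes tested and a threshold of 0.05. The 8 libraries of a line were fitted together with 1 mean per group (17499 genes in HepG2, 17895 in SNU-449), and lines were compared in a fit of all 16 (20459 genes). In these 3 fits the biological coefficient of variation was 0.101, 0.0728 and 0.0891. The fits were tested on simulated data. Chi-square over degrees of freedom between replicates was 33 in the HepG2 cytoplasm with NC, the group that differed most. It was 4.48 to 12.3 in the other groups, so no library was a copy of its replicate. Alternatives were RLE scaling, no scaling factors, no filter, DESeq2 1.42.0, a replicate block, the 4 libraries of a fraction alone and each library left out.

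Named were all 7 members in every comparison, C7orf25, CDK4, CDK6, CCND1, MTAP and CDKN2B-AS1; from each list and knockdown comparison at most the 2 called genes with the largest change; and the 3 genes most like each member (mean log2 CPM at least 1). Some results of the lists are not reported here. The members and lists were chosen with earlier results of these data known.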

Additional observations from a re-analysis of the deposited data

Results flagged for a closer look

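These values were singled out because a test of a difference between effects passed the threshold (edgeR's quasi-likelihood test, adjusted p under 0.05). Between fractions of a line, the nuclear and cytoplasmic effects of siPANAD differed for CDKN2D in HepG2, by 0.98 on the log2 scale, and for CDKN1A in SNU-449, by 0.91.

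Between lines, the cytoplasmic effect in SNU-449 minus that in HepG2 was -0.96 for CDKN1A, 0.46 for CDKN1B and -1.59 for CDKN2C. The nuclear effect differed by -0.58 for CDKN1A, -1.56 for CDKN2C and -0.90 for CDKN2D. The CDKN2C values come from effects of opposite sign, each past the threshold in its own line and fraction. CDKN1A in both fractions and CDKN1B in the cytoplasm were past the threshold in HepG2 and not in SNU-449, and CDKN2D in the nucleus was past it in SNU-449 and not in HepG2.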

How the results depend on the processing

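Over 60 values of members, 928 values were computed under the alternatives: 853 kept direction and side of the threshold, 42 fell short of it, 26 newly passed it and 7 changed sign, and 41 of the 60 had no change of either kind. The number of members called for the HepG2 shift, 1, was 3 with no scaling factors, 3 with no filter on low counts and 2 with DESeq2, and ranged from 0 to 2 with each library left out. The SNU-449 shift had 1 and ranged from 0 to 1 with each library left out, and the nuclear difference between lines had 3 and ranged from 1 to 3, with 1 left without HepG2 nucleus NC replicate 1. Signs changed for CDKN1B in the HepG2 nucleus (0.06 with no scaling factors), for the HepG2 CDKN2C shift (0.13 with no scaling factors), for the SNU-449 CDKN2C shift (0.04 without nuclear siPANAD replicate 2, -0.34 to 0.04 with each library left out) and for the HepG2 CDKN2B ratio of nucleus to cytoplasm (0.05 with RLE scaling, 0.05 with DESeq2, 0.58 with no scaling factors, 0.01 without cytoplasm NC replicate 1, -0.07 to 0.01 with each library left out). The causes were not tested.

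With no scaling factors the median log2 value over all genes moved to -0.12 and 0.14 for the HepG2 cytoplasmic and nuclear knockdown, 0.66 and 1.06 for nucleus against cytoplasm in HepG2 and SNU-449, 0.27 for the HepG2 shift and 0.18 for the cytoplasmic difference between lines. The share of higher genes among those called then went from 48.2% to 64.4% (HepG2 nucleus), 51.1% to 70.2% and 54.6% to 76.6% (nucleus against cytoplasm), 49.7% to 87.2% (HepG2 shift, 68.2% with no filter), 50.5% to 70.9% and 54% to 43.1% (cytoplasmic and nuclear difference between lines). The HepG2 shift called 3057 genes in place of 1730.

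Replicate numbers are shared by the groups, but the labels do not tie them to a common culture or day, and deviations of same-numbered libraries correlated at -0.444 to 0.256. With a replicate block the members called went from 4 to 5 in the HepG2 nucleus (CDKN2D 0.51, adjusted p = 0.0488), from 3 to 4 in the SNU-449 cytoplasm (CDKN1A -0.49, adjusted p = 0.0129) and nucleus (CDKN1A 0.41, adjusted p = 0.038), and from 3 to 2 for the cytoplasmic difference between lines (CDKN1B 0.46, adjusted p = 0.0531); counts for the other comparisons stayed as they were. CDKN1C in HepG2 and CDKN2A and CDKN2B in SNU-449 did not pass the filter on low counts in the fit of that line. Their siPANAD effects there are described by counts only, at library totals of 16238235 to 30321908 in HepG2 and 17083508 to 19498081 in SNU-449.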

Other observations

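Genes next to the members on their chromosomes gave a further set of values. Of 15 tested in HepG2, 6 rose and 3 fell in the cytoplasm, and 3 rose and 6 fell in the nucleus. SNU-449 had 11 tested, of which 3 rose and 3 fell in the cytoplasm, and 2 rose and 5 fell in the nucleus. Between 39.7% and 47.9% of all genes passed, and this list was not tested. APOLD1 rose in both cytoplasms, by log2 2.48 (SE 0.67) in HepG2 and 1.70 (SE 0.50) in SNU-449, at means of 0.753 and 1.18 CPM with siPANAD. PHLDA2, an imprinted neighbour of CDKN1C on chromosome 11, fell in all 4 knockdown comparisons. In the HepG2 cytoplasm it was at 115 and 64.3 CPM with NC and 18.8 and 22 with siPANAD, and in the HepG2 nucleus at 38.1 and 38.6 against 6.54 and 6.24. The SNU-449 cytoplasm had 182 and 204 CPM against 126 and 121, and the nucleus 44 and 48.5 against 25.5 and 25.5. The log2 fold changes of PHLDA2 were -2.13, -2.58, -0.64 and -0.86 in that order, with SEs of 0.09 to 0.25. SLC22A18, an organic cation transporter gene of the same imprinted region, rose in both SNU-449 fractions, by 0.69 (SE 0.13) in the cytoplasm and 1.11 (SE 0.11) in the nucleus. In HepG2 SLC22A18 fell in the cytoplasm, from 29 and 25.2 CPM to 14.6 and 14.1 (log2 -0.91, SE 0.15), and had a log2 fold change of 0.18 (SE 0.13, adjusted p = 0.248) in the nucleus.

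At the CDKN2A locus in HepG2, the antisense RNA CDKN2B-AS1 fell in the nucleus, as CDKN2A and CDKN2B did, from 1.58 and 1.5 CPM to 0.528 and 0.18 (log2 -2.07, SE 0.45, adjusted p = 5.2e-04), on 64 and 17 counts. In the cytoplasm CDKN2B-AS1 had 0.94 and 2.02 CPM with NC, from 13 and 50 counts, and 0.8 and 0.47 with siPANAD. MTAP fell in the nucleus, from 18.3 and 20.6 CPM to 10.9 and 9.52 (log2 -0.92, SE 0.15, adjusted p = 1.7e-05), and had 13.2 and 15.8 against 16.2 and 16.9 in the cytoplasm (log2 0.18, SE 0.16, adjusted p = 0.343).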
